A study of Citrus reticulata and Citrus x clementina and Citrus x paradisi with 16 samples.

Results

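Class III peroxidases are secreted plant haem enzymes of the apoplast and cell wall. They use hydrogen peroxide to oxidise phenolic compounds, among them the monolignols that are joined into lignin, and they can also form reactive oxygen species. In this way they can stiffen or loosen a wall. Plant genomes hold many such genes, often in tandem clusters of near-identical copies, and such copies are hard to tell apart with short reads. Here 6 peroxidase loci of citrus ovules are described, 5 of the 20373 loci in the PK/CM table and 1 of the 22595 loci in the GF/PU table. The 6 loci were taken from the loci that the study annotated as peroxidase among those differing between poly- and monoembryonic ovules in both cultivar pairs. The differences between cultivars therefore chose the members, and they are given below as a description with no test. Locus numbers hold only within their own table. No sequence or protein annotation was used here, so membership of class III rests on the study's annotation. The identity of the tissue as ovule was not checked against ovule markers.

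Nucellar embryony is a form of apomixis in which embryos arise from maternal nucellar cells and grow beside the sexual embryo. Ovules of 2 polyembryonic cultivars were each set against a monoembryonic one. PK, Ponkan mandarin Huagan No. 2, was paired with CM, Nour clementine, and GF, Cocktail grapefruit, was paired with PU, Huanong red pummelo. The NEI stage was 7 days after flowering in PK and CM and 3 days in GF and PU, and the pre-NEI stage was 3 days in PK and CM and 0 days, anthesis, in GF and PU. NEI stands for nucellar embryo initiation, which the study saw in PK and GF, so for the monoembryonic partners the 2 stage names are only days. All cultivars had been pollinated by hand with trifoliate orange. Each library came from the pooled ovules of several trees, and the 2 libraries of each group came from consecutive seasons, which the labels do not tie to a replicate number. The cultivars of a pair differ throughout their genomes, so polyembryony and other differences between the genotypes cannot be told apart. In whole ovules, fewer cells that express a gene and less RNA in each cell cannot be told apart either.

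Counts assigned to loci totalled 17854433 to 24912818 per library in PK and CM and 11837770 to 34195361 in GF and PU. Levels are given as CPM, counts per 1000000 counts of the library after trimmed mean of M-values (TMM) scaling, and 3 counts correspond to 0.131 to 0.204 CPM in the PK/CM libraries and 0.0945 to 0.24 CPM in the GF/PU libraries. All 6 members passed the filter on low counts, but XLOC_004476 and XLOC_004477 reached 1 CPM in only 1 and 0 of the CM libraries and so passed through PK. A small subunit gene of Rubisco, the carbon-fixing enzyme of green tissue, was measured as a marker of other tissue. In the PK/CM table (XLOC_014803) it averaged 35.1 ± 23.2 CPM in PK and 227 ± 115 CPM in CM at pre-NEI (SD, n = 2 each), and 72.8 ± 46.4 CPM in PK and 120 ± 13.5 CPM in CM at NEI. In the GF/PU table (XLOC_012811) it averaged 103 ± 22.5 CPM in GF and 272 ± 25.2 CPM in PU at pre-NEI, and 45.9 ± 10.3 CPM in GF and 107 ± 5.54 CPM in PU at NEI. Its part in the peroxidase values was not tested.

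Of the 5 mandarin members, XLOC_003346 (Ciclev10015779m.g) had the highest mean CPM over the 8 libraries. It lies on the minus strand of scaffold 2 of the clementine genome at scaffold_2:4941567-4986631. At NEI the PK libraries held 185 and 152 CPM of it, against 36.8 and 24.6 CPM in CM. The pre-NEI values were 64.1 and 70.2 CPM in PK, against 48.1 and 64.2 CPM in CM. The cultivars stood apart at NEI and overlapped at pre-NEI. The log2 fold change of PK over CM was 2.46 ± 0.33 (SE) at NEI and 0.26 ± 0.31 at pre-NEI. Its 3 transcripts, of 1107 to 1257 bases, ran from 5.4 to 5.5 times higher in PK at NEI and from 1.17 to 1.2 times at pre-NEI. The authors' pooled FPKM, a length-normalised level, summed over its transcripts, was 137 in PK and 22.1 in CM at NEI, and 55.1 in PK and 42.8 in CM at pre-NEI.

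Over the 5 members, the median log2 fold change of PK over CM was 2.56 at NEI and 0.26 at pre-NEI, against 0.016 and 0.0042 over all 18749 tested loci. At NEI all 5 differed by at least 1 on the log2 scale, as did 22.5% of all tested loci. At pre-NEI 3 of the 5 did, as did 33.7% of all tested loci. These counts follow from the way the members were chosen. Over all tested loci, the PK libraries were above the CM libraries without overlap in 16.7% at NEI and 32.4% at pre-NEI. They were below without overlap in 17.9% and 30.4%.

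**Figure D1:**
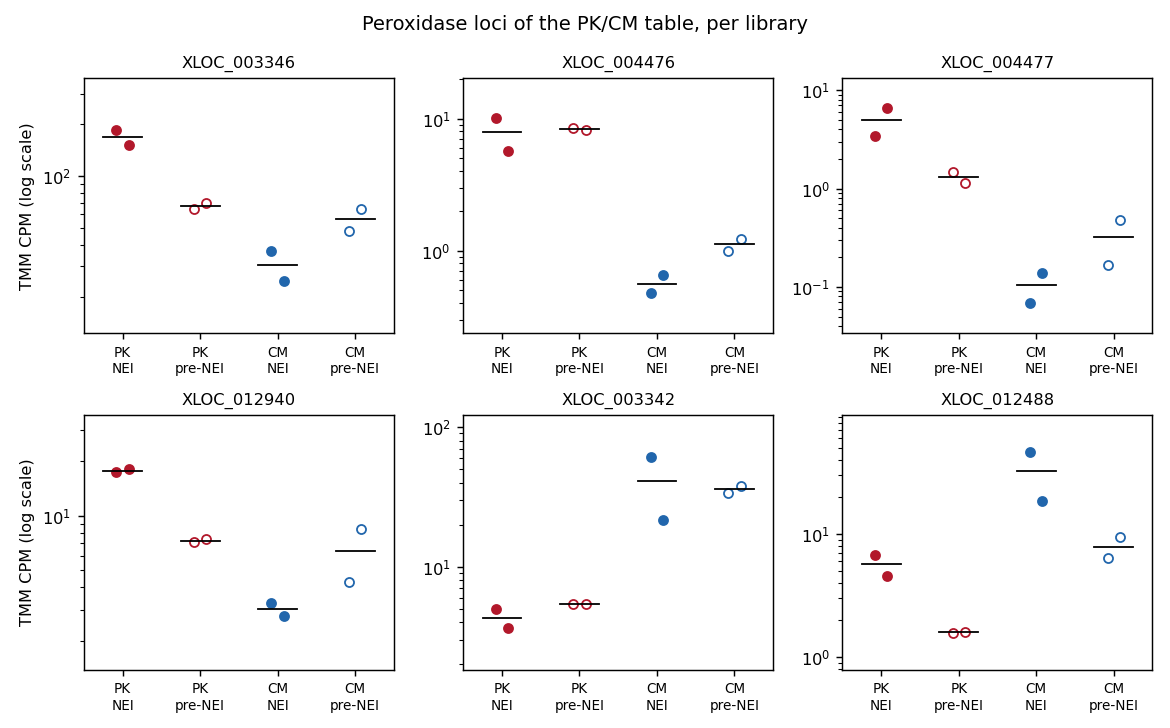
Levels of 6 peroxidase loci in the PK/CM table, in TMM CPM on a log scale. Each point is a library, filled at NEI and open at pre-NEI, and the bar is the mean of 2 libraries. XLOC_003346 had 152 and 185 CPM in PK at NEI and 24.6 to 64.2 CPM in CM, while XLOC_003342 and XLOC_012488 were lower in PK than in CM at both stages.

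XLOC_004476 lies inside the span of XLOC_003346, at scaffold_2:4982857-4983033, as a single transcript of 177 bases with no strand and no reference gene. It had 10.1 and 5.7 CPM in PK and 0.476 and 0.65 CPM in CM at NEI, from 175 and 117 counts in PK and 7 and 14 in CM. At pre-NEI it had 8.49 and 8.21 CPM in PK, against 0.999 and 1.23 CPM in CM. The PK libraries were above the CM libraries at both stages, unlike those of XLOC_003346. The log2 fold changes were 3.78 ± 0.56 at NEI and 2.90 ± 0.53 at pre-NEI (SE). From the summed counts, PK was 13.3 times CM at NEI and 7.41 times CM at pre-NEI.

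XLOC_004477, at scaffold_2:4983924-4984537, lies in the same span and is a single transcript of 614 bases without strand or reference gene. It was rare in CM, with 1 and 3 counts at NEI and 3 and 11 counts at pre-NEI. In PK it had 59 and 135 counts at NEI and 34 and 24 counts at pre-NEI. At NEI its level was 3.4 and 6.57 CPM in PK, against 0.0679 and 0.139 CPM in CM. At pre-NEI it was 1.49 and 1.13 CPM in PK, against 0.167 and 0.483 CPM in CM. The groups did not overlap at either stage, though the CM values rest on 1 to 11 counts a library. With 194 counts in PK and 4 in CM, the ratio at NEI was 46.4, and with 58 and 14 counts it was 3.83 at pre-NEI.

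Whether these inner loci share reads with XLOC_003346 cannot be settled from the tables, which give the outer start and end of each locus but not its exons. The longest transcript of XLOC_003346 covers 2.79% of its span of 45065 bases, so a locus inside the span may or may not meet one of its exons. The counts do not decide it for the 2 members, since each count is small enough to lie wholly within that of XLOC_003346. The loci were counted separately, and their ratios are given as a percent of the XLOC_003346 count. At NEI the count of XLOC_004476 equalled 5.45% and 3.74% of it in PK, against 1.29% and 2.65% in CM. At pre-NEI the ratio was 13.2% and 11.7% in PK, against 2.08% and 1.91% in CM. For XLOC_004477 it was 1.84% and 4.31% in PK and 0.185% and 0.567% in CM at NEI, and 2.32% and 1.6% in PK and 0.346% and 0.752% in CM at pre-NEI. Neither ratio was constant, and both were higher in every PK library than in any CM library.

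If all counts of XLOC_004476 and XLOC_004477 had also been counted in XLOC_003346, taking them off would leave 172 and 140 CPM in PK and 36.2 and 23.8 CPM in CM at NEI. The log2 ratio of the means would then be 2.38 at NEI and 0.072 at pre-NEI. The span holds 6 inner loci in all, and their counts together exceeded that of XLOC_003346 by up to 269 in a CM library. The largest inner locus, XLOC_003347 (Ciclev10018160m.g), had a count equal to 42.2% to 132% of the XLOC_003346 count. In CM NEI replicate 2 it alone had 698 counts against 529. At least part of the XLOC_003347 count was therefore not in that of XLOC_003346. This sets no limit for XLOC_004476 or XLOC_004477.

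**Figure D2:**
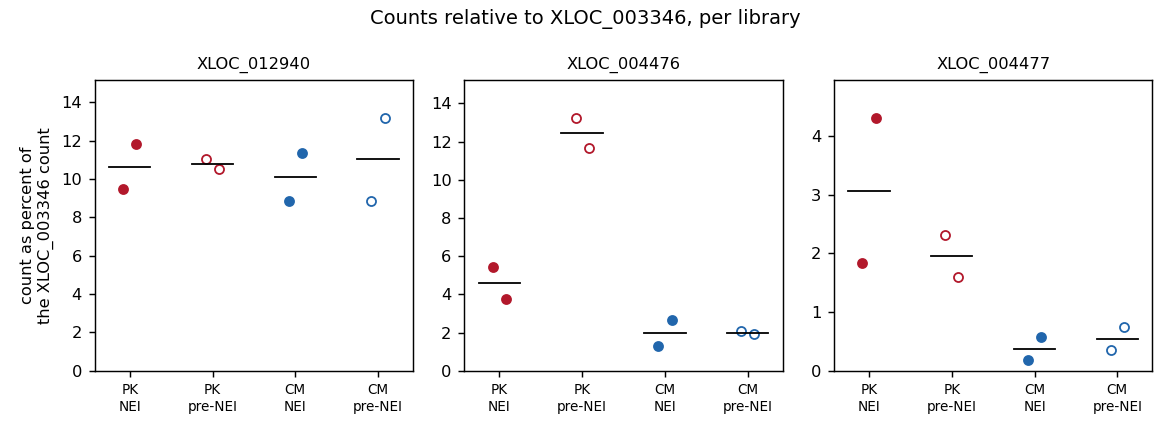
Counts of XLOC_012940, XLOC_004476 and XLOC_004477 as a percent of the XLOC_003346 count in the same library, with bars at the mean of 2 libraries. XLOC_012940 stayed between 8.87% and 13.2%, whereas the 2 inner loci had higher ratios in each PK library than in any CM library.

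XLOC_012940, on scaffold 5 at scaffold_5:10445816-10446289, is a single transcript of 474 bases with no strand or reference gene. It had 17.5 and 18.1 CPM in PK and 3.26 and 2.79 CPM in CM at NEI. Its pre-NEI level was 7.09 and 7.41 CPM in PK, against 4.27 and 8.47 CPM in CM. As with XLOC_003346, the cultivars stood apart at NEI and overlapped at pre-NEI, with log2 fold changes of 2.56 ± 0.47 and 0.18 ± 0.44 (SE). Although it is on another scaffold, its count stayed between 8.87% and 13.2% of that of XLOC_003346 in all 8 libraries, a range of 1.49 times. The correlation of the 2 loci over these libraries was 0.98 (Pearson's r of log2(CPM + 1), 8 libraries that share groups and depths). Reads that match both loci were not separated in the tables, so the values of XLOC_012940 may hold reads of the larger locus.

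XLOC_003342 (Ciclev10015783m.g) lies on the minus strand 43 kb below XLOC_003346, at scaffold_2:4895611-4898595, and was the member that was lower in PK. It had 4.95 and 3.65 CPM in PK and 60.9 and 21.5 CPM in CM at NEI. The level at pre-NEI was 5.43 and 5.44 CPM in PK, against 33.7 and 37.8 CPM in CM. Every PK library was below every CM library. The log2 fold changes were -3.26 ± 0.53 at NEI and -2.72 ± 0.52 at pre-NEI (SE), and all 6 of its transcripts were lower in PK at both stages. Its pattern was the reverse of that of XLOC_003346 across the 8 libraries (r = -0.72). Without the higher CM library at NEI, the log2 fold change at NEI was -2.34.

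Per kilobase of transcript, the order of the 5 mandarin members differed between cultivars. In PK at NEI, XLOC_003346 had 134 CPM per kb, XLOC_004476 44.5, XLOC_012940 37.5, XLOC_004477 8.12 and XLOC_003342 4.45. In CM at NEI, XLOC_003342 was the highest of the members at 42.6 CPM per kb, followed by XLOC_003346 at 24.4, XLOC_012940 at 6.38, XLOC_004476 at 3.18 and XLOC_004477 at 0.169. In the 2 CM libraries at NEI, XLOC_003342 had 62.9 and 22.2 CPM per kb and XLOC_003346 had 29.2 and 19.5 CPM per kb, so XLOC_003342 was above XLOC_003346 in both, by little in the second. The peroxidase XLOC_012488, which is no member and is described further on, stood between them at 26.2 CPM per kb. In the authors' pooled FPKM the order was another: XLOC_004476 was listed at 1399 in PK and at 0 in CM at NEI, and at 1058 in PK and at 0 in CM at pre-NEI. XLOC_004477 was also listed at 0 in CM. The CM counts of both loci were above 0.

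The neighbourhood of XLOC_003346 was counted for comparison, as the 22 non-member loci that start or end within 100 kb of it or lie in its span, all of them tested. Between PK and CM at NEI, 1 was called higher and 0 lower in PK, where 1.64% of all 18749 loci were called. Their median log2 fold change was 0.21, against 0.016 over all loci. At pre-NEI 0 were called, where 3.6% of all loci were called, and the median was -0.76 against 0.0042. The called neighbour was XLOC_004475, which also lies inside the span and which averaged 4.99 ± 2.79 CPM in PK and 0.39 ± 0.026 CPM in CM at NEI (log2 3.66 ± 0.66, SE, edgeR adjusted p = 0.0463). Like XLOC_004476, it was a short transcript without strand or reference gene. It reached 1 CPM in 4 libraries, 0 of them CM, so it passed the filter only through the cultivar in which it was high. With the replicate number as a block, XLOC_004475 was also called higher in PK at pre-NEI (edgeR adjusted p = 0.0364, where 4.27% of all loci were called higher) and the neighbour XLOC_003345 was called lower (adjusted p = 0.0489, where 6.43% were called lower).

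**Figure D3:**
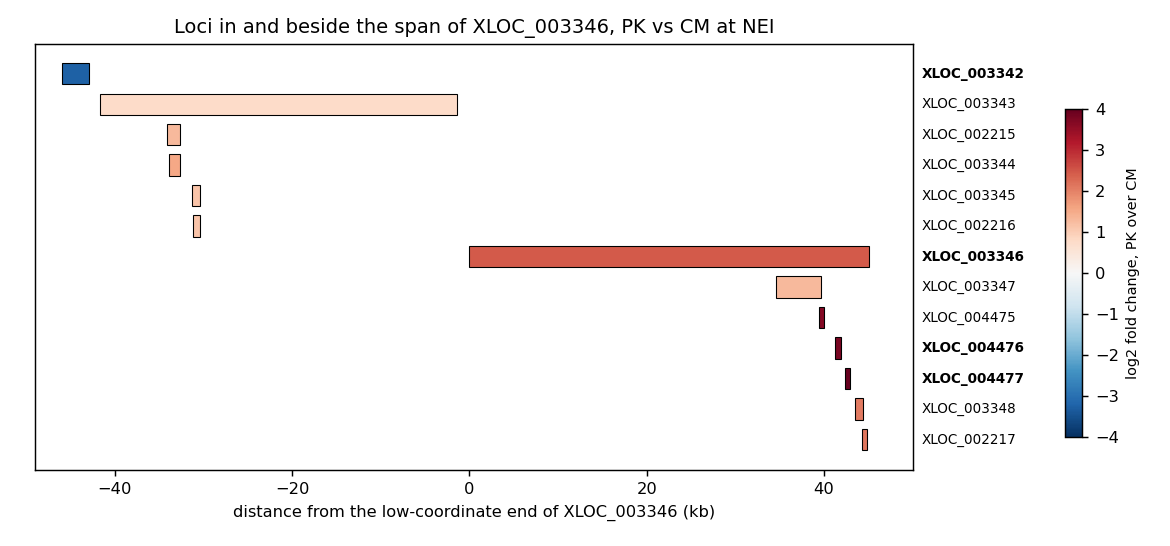
Loci within and beside XLOC_003346, placed by distance in kb from its low-coordinate end and coloured by the log2 fold change of PK over CM at NEI. Members are in bold, and loci under 0.6 kb are drawn 0.6 kb wide. The 6 loci inside the span ranged from 1.29 (XLOC_003347) to 5.46 (XLOC_004477), while XLOC_003342 stood at -3.26.

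In the GF/PU table the member was XLOC_019444, which spans chrUn:32172271-32250519 on the plus strand of the sweet orange genome and takes in 4 annotated genes (orange1.1t02037, orange1.1t02041, orange1.1t02043 and orange1.1t02044). The study set these genes beside XLOC_004476 and XLOC_004477. XLOC_019444 was among the more abundant loci of these ovules, above 97.2% of tested loci in mean CPM per kb. Its main transcript, TCONS_00104402, taken for its largest total count over the 8 libraries, had 667 and 398 CPM in GF and 155 and 75 CPM in PU at NEI. Pre-NEI values were 157 and 227 CPM in GF, against 76.7 and 54.2 CPM in PU. The GF libraries were above the PU libraries at both stages, with log2 fold changes of 2.21 ± 0.46 at NEI and 1.55 ± 0.45 at pre-NEI (SE). In PU this transcript was not the most abundant of the locus. At NEI it averaged 115 CPM there, against 233 CPM for TCONS_00111332.

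The size of the difference between GF and PU depended on the transcript. Of the 11 transcripts of XLOC_019444, 5 were higher in GF with no overlap between libraries at NEI, 0 were lower and 6 overlapped, and the ratio of GF over PU ran from 1.01 to 16. At pre-NEI 5 were higher, 1 was lower and 5 overlapped, with ratios from 0.54 to 17. Over all tested loci, GF was above PU without overlap in 35.4% at NEI and 29.0% at pre-NEI. It was below PU without overlap in 32.3% and 25.5%. The 11 transcripts belong to the same locus and are not separate observations. Transcripts TCONS_00104403 and TCONS_00112967 had the largest ratios, 14.9 and 16 at NEI. TCONS_00104403 had 42 and 30.4 CPM in GF and 3.32 and 1.54 CPM in PU at NEI, and 19.7 and 65 CPM in GF and 3.36 and 2 CPM in PU at pre-NEI. By contrast, TCONS_00111332, which was far more abundant, had 459 and 208 CPM in GF and 314 and 151 CPM in PU at NEI. Summed over transcripts, the log2 fold change of the locus was 1.06 at NEI and 0.74 at pre-NEI, against 2.21 and 1.55 for the main transcript. The authors' pooled FPKM, summed likewise, was 694 in GF and 365 in PU at NEI and 316 in GF and 220 in PU at pre-NEI. A read that fits several transcripts or several of the 4 genes may have been counted under each of them, which the tables do not show.

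**Figure D4:**
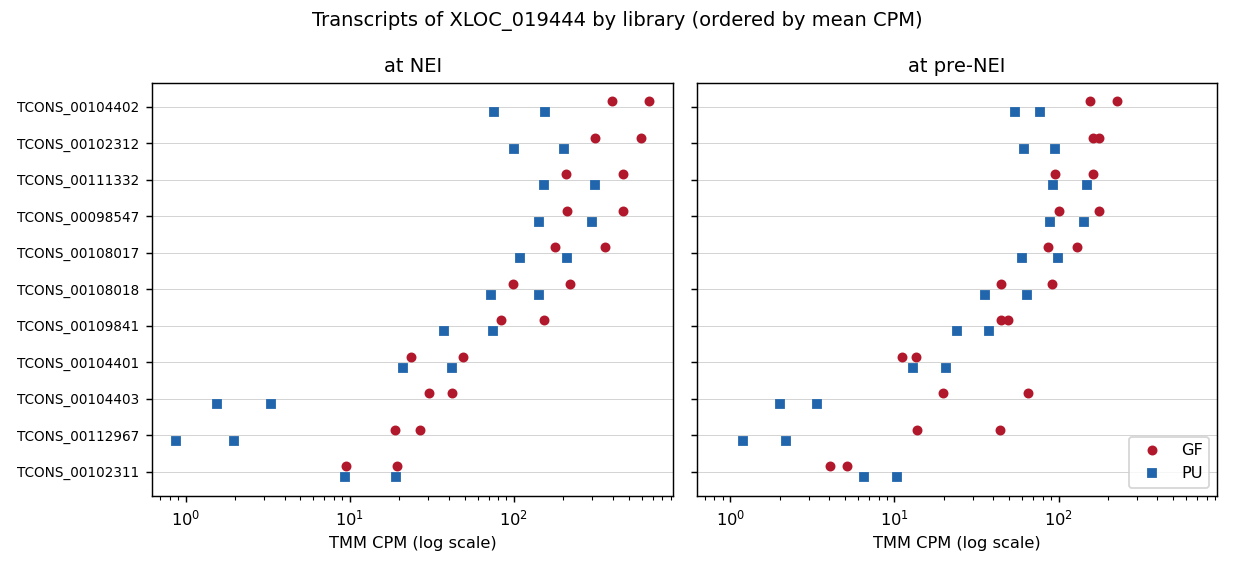
The 11 transcripts of XLOC_019444 in each GF library (circles) and each PU library (squares), in TMM CPM on a log scale, at NEI and at pre-NEI. TCONS_00104403 and TCONS_00112967 differed 14.9 and 16 times at NEI, whereas several of the more abundant transcripts overlapped between cultivars.

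The counterparts of the other mandarin members were 3 further loci of the GF/PU table. XLOC_019443 (orange1.1t02036 and orange1.1t02040, set beside XLOC_003346) spans chrUn:32167785-32209717, and overlaps XLOC_019444 on the same strand. It had 34.9 and 13.8 CPM in GF and 5.58 and 2.68 CPM in PU at NEI, and 9.58 and 30.8 CPM in GF and 3.09 and 0.881 CPM in PU at pre-NEI. GF was above PU at both stages, with log2 fold changes of 2.55 ± 0.84 and 3.32 ± 0.87 (SE). Unlike XLOC_003346 in PK and CM, it was thus apart at pre-NEI too.

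XLOC_021475 (orange1.1t04469, at chrUn:70344323-70345610 on the minus strand, set beside XLOC_012940) had 17.9 and 9.02 CPM in GF and 4.22 and 1.74 CPM in PU at NEI. At pre-NEI it had 5.65 and 15.8 CPM in GF, against 2.82 and 1.28 CPM in PU. It was higher in GF at both stages, by 2.16 ± 0.74 and 2.37 ± 0.75 on the log2 scale (SE). Its count ran at 51.2% to 145% of that of XLOC_019443, a range of 2.84 times over 8 libraries.

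XLOC_019445 (orange1.1t02045, at chrUn:32251644-32254588 on the plus strand, set beside XLOC_003342) had 7.26 and 4.12 CPM in GF and 32.3 and 11 CPM in PU at NEI. At pre-NEI it had 25.1 and 22.1 CPM in GF, against 28 and 7.45 CPM in PU. It was lower in GF at NEI, by -1.93 ± 0.73 (SE), and overlapped at pre-NEI (0.41 ± 0.70). The directions at NEI were thus those of the mandarin members: positive for XLOC_019443, XLOC_019444 and XLOC_021475 and negative for XLOC_019445, as the choice of loci changed in both pairs fixes. The share of all 19944 tested loci called between GF and PU was 21.7% at NEI and 6.56% at pre-NEI.

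**Figure D5:**
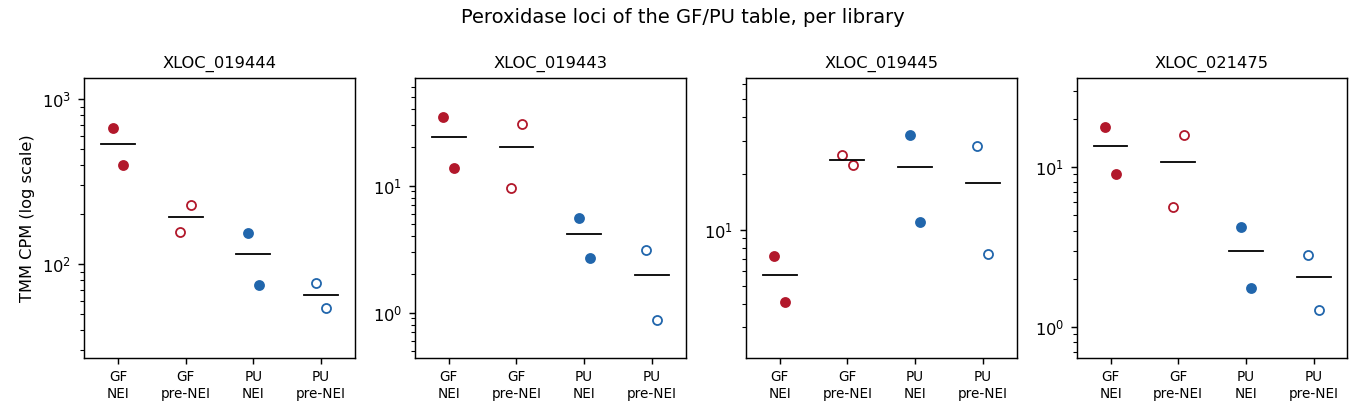
Levels of XLOC_019444 and 3 further peroxidase loci in the GF/PU table, in TMM CPM on a log scale, with 1 point for each library and bars at the mean of 2 libraries. XLOC_019444 had 398 and 667 CPM in GF at NEI and 75 and 155 CPM in PU, and XLOC_019445 was lower in GF than in PU at NEI only.

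Between stages within a cultivar, a comparison that did not choose the members but shares libraries with the one that did, 0 of the 5 mandarin members were called in PK and 0 in CM by edgeR's quasi-likelihood test, where 0% of all loci were called in each. At an unadjusted p under 0.05, 3 members (XLOC_003346, XLOC_012940 and XLOC_004477) passed in PK, where 3.7% of all loci did, and 2 (XLOC_003346 and XLOC_012940) in CM, where 9.47% did. These members may share reads, so they are not separate observations, and XLOC_004477 passed the filter through PK. The choice of members used the same libraries, so 3.7% and 9.47% are no like-for-like comparison. DESeq2 called 0 members in PK and 0 in CM (0.08% and 2.07% of all loci), and so did the edgeR exact test (0.064% and 0.773%). For XLOC_003346 the NEI minus pre-NEI difference was 1.33 ± 0.32 in PK (SE, adjusted p = 0.995) and -0.87 ± 0.32 in CM (adjusted p = 0.476) by the quasi-likelihood test. Every NEI library of XLOC_003346, XLOC_012940 and XLOC_004477 was above every pre-NEI library in PK and below in CM. This opposition was seen in 4.01% of all tested loci, and its reverse in 4.26%. Choosing members by cultivar differences can favour such a pattern, so these shares are no like-for-like comparison. Some neighbours of XLOC_003346 that were not chosen by their level showed the same opposition, such as XLOC_003344 (1.34 in PK and -1.44 in CM). Over the 22 neighbours the median stage change was 0.46 in PK and -0.56 in CM, against 0.021 and -0.011 over all loci.

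In GF and PU, 0 of the 4 peroxidase loci were called between stages by the quasi-likelihood test, where 0% of all loci were called in each. At an unadjusted p under 0.05, XLOC_019444 and XLOC_019445 passed in GF, where 16.8% of all loci did, and 0 in PU, where 21% did. Here too the choice of loci used the same libraries. XLOC_019444 was higher at NEI in GF by 1.47 ± 0.45 (SE, quasi-likelihood adjusted p = 0.196). DESeq2 called it higher (adjusted p = 0.0391), as it did 6.18% of all loci in either direction, and so did the exact test (adjusted p = 0.0159, 6.49% of all loci). The exact test also called XLOC_019445 lower at NEI in GF (adjusted p = 0.00646), with a quasi-likelihood estimate of -2.05 ± 0.74. In PU, 0 of the 4 were called by DESeq2 (8.64% of all loci) or by the exact test (4.27%).

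A further peroxidase that was not chosen by its level, XLOC_012488 (Ciclev10001751m.g, scaffold_5:38283418-38285054, minus strand, annotated by the study as a peroxidase superfamily protein among predicted miRNA targets), allowed a test between cultivars. It had 6.74 and 4.58 CPM in PK and 46.3 and 18.6 CPM in CM at NEI, and 1.58 and 1.59 CPM in PK and 6.38 and 9.39 CPM in CM at pre-NEI. PK was below CM at both stages, by -2.52 ± 0.54 at NEI and -2.31 ± 0.54 at pre-NEI (SE), with no overlap between libraries. The same held for 17.9% of all tested loci at NEI and 30.4% at pre-NEI. By the quasi-likelihood test XLOC_012488 was not called, with adjusted p = 0.0745 at NEI and 0.0647 at pre-NEI. With the replicate number as a block, it was called lower in PK at NEI (adjusted p = 0.0398, where 2.02% of all loci were called lower) and at pre-NEI (adjusted p = 0.0304, 6.43% of all loci). DESeq2 and the exact test called it lower at NEI (adjusted p = 0.000644 and 0.0375, where they called 5.79% and 3.26% of all loci in either direction) and at pre-NEI (adjusted p = 0.00196 and 0.00317, 13.0% and 16.4% of all loci). Between stages it was higher at NEI in every library, by 1.83 ± 0.54 in PK (adjusted p = 0.995) and by 2.04 ± 0.52 in CM (adjusted p = 0.412). The stages stood apart, in either direction, in 36.6% of all loci in PK and 35.5% in CM. DESeq2 called the CM difference (adjusted p = 0.0255), and the exact test did not (adjusted p = 0.127).

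Laccases, copper enzymes that couple the same monolignols with oxygen in place of hydrogen peroxide, were measured beside the peroxidases. Of 15 clementine genes that the study predicted as miRNA targets and annotated as laccase, 4 had a locus in the PK/CM table. At NEI 1 of the 4 was called higher in PK and 0 lower, where 1.64% of all loci were called, and at pre-NEI 0 were called, where 3.6% of all loci were. The median log2 fold changes were 1.26 at NEI and -1.34 at pre-NEI. At pre-NEI DESeq2 and the exact test called 2 of the 4 each (13.0% and 16.4% of all loci). At NEI DESeq2 called 2 of the 4 and the exact test 1 (5.79% and 3.26% of all loci). With the replicate number as a block, XLOC_013626 was called lower in PK at pre-NEI (log2 -2.86, edgeR adjusted p = 0.0147, where 6.43% of all loci were called lower), against an adjusted p of 0.0551 without it. XLOC_013626 averaged 1.56 ± 0.845 CPM in PK and 10.7 ± 1.29 CPM in CM at pre-NEI (SD, n = 2 each). The called one at NEI, XLOC_013625 (Ciclev10011377m.g), had 905 and 1013 CPM in PK and 149 and 61.2 CPM in CM at that stage (log2 3.19 ± 0.53, SE, edgeR adjusted p = 0.0389). With the replicate number as a block it was also called higher at NEI (edgeR adjusted p = 0.0102, where 1.32% of all loci were called higher). At pre-NEI its order was the opposite, with 288 and 188 CPM in PK and 720 and 548 CPM in CM (log2 -1.41 ± 0.50, adjusted p = 0.158). Leaving out any 1 of the 8 libraries ended its call at NEI (adjusted p 0.0764 to 0.125).

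Both sweet orange genes annotated as laccase in that list had a locus in the GF/PU table, and both were called higher in GF at NEI, where 21.7% of all loci were called, and 1 at pre-NEI, where 6.56% were. XLOC_011655 (Cs6g07400) had 235 and 236 CPM in GF and 1.01 and 0.268 CPM in PU at NEI, and 71.1 and 136 CPM in GF and 3.15 and 3.45 CPM in PU at pre-NEI (log2 8.46 ± 0.65 and 4.98 ± 0.54, SE, edgeR adjusted p = 0.0023 and 0.0067). XLOC_012388 (Cs6g07450) averaged 2.72 ± 0.987 CPM in GF and 0.67 ± 0.094 CPM in PU at NEI (edgeR adjusted p = 0.0439). That call was lost in 7 of the 8 fits that left out 1 library (adjusted p 0.0463 to 0.195 over the 8), in the exact test, without a filter on low counts and in a fit of only the 4 libraries compared. The study had picked XLOC_013625 and the gene of XLOC_011655 on these samples as changed in both pairs, so their direction is not independent evidence.

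Other redox enzymes were listed for both tables. Of 4 such loci in the PK/CM table, for respiratory burst oxidase homolog B (XLOC_011128), glutathione peroxidase 4 (XLOC_007605), glutathione-disulfide reductase (XLOC_018961) and ascorbate peroxidase 1 (XLOC_018185), 0 were called between PK and CM at either stage by the quasi-likelihood test, and 0 passed at an unadjusted p under 0.05, where 12.0% of all loci did at NEI and 22.3% at pre-NEI. DESeq2 also called 0, where it called 5.79% of all loci at NEI and 13.0% at pre-NEI. The exact test called XLOC_011128 lower in PK at pre-NEI (adjusted p = 0.048, where 9.39% of all loci were called lower). That locus, an oxidase that generates superoxide, had 1.09 and 0.657 CPM in PK and 6.55 and 1.84 CPM in CM at pre-NEI, without overlap. At NEI it had 14.7 and 1.07 CPM in PK and 51.3 and 0.836 CPM in CM, so at that stage its replicates differed more than its cultivars. A copper zinc superoxide dismutase (XLOC_005018, Cs3g12000), which turns superoxide into hydrogen peroxide, averaged 332 ± 82.2 CPM in GF and 630 ± 70.2 CPM in PU at pre-NEI (log2 -0.93 ± 0.31, SE, edgeR adjusted p = 0.128) and was not called at NEI either.

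The loci with a reference gene whose levels most resembled those of XLOC_003346 over the 8 libraries were XLOC_008699 (Ciclev10031130m.g, r = 0.965), XLOC_012394 (Ciclev10001250m.g, 0.957) and XLOC_012321 (Ciclev10000981m.g, 0.946). XLOC_012321 averaged 194 CPM in PK and 35.2 CPM in CM at NEI, and 56.3 CPM in PK and 51.6 CPM in CM at pre-NEI. For XLOC_019444 they were XLOC_003367 (Cs2g03840, r = 0.989), XLOC_003970 (Cs2g20590, 0.984) and XLOC_007827 (Cs4g03470, 0.981). XLOC_003970 was far more abundant than the peroxidase, at 7235 CPM in GF and 625 CPM in PU at NEI and 1399 CPM in GF and 174 CPM in PU at pre-NEI. These correlations, of log2(CPM + 1), are descriptions over 8 libraries that share groups and depths.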

How the data were processed

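RNA-seq of 16 ovule libraries, 2 for each of 8 groups, was used. The authors aligned reads with TopHat and Bowtie to the clementine genome (PK, CM) or the sweet orange genome (GF, PU) and assembled transcripts with Cufflinks; the processing notes also name Cuffdiff, and versions are not given in the sources used here. The deposited tables hold read counts per assembled transcript and library, whose header names no unit and which were read as counts because they are whole numbers of unequal totals, and FPKM pooled over replicates by the authors. The deposited GC percent and the authors' fold changes and p-values were not used. Coordinates are the authors'.

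A locus was given the counts of its transcript with the largest total. The filter asked for 1 CPM or more in 2 libraries or more, which 18749 (PK/CM) and 19944 (GF/PU) loci passed, and the 8 libraries of a table were fitted together with edgeR 4.0.16 (R 4.3.3, TMM, quasi-likelihood test). Calls rest on an adjusted p (Benjamini-Hochberg, over all tested loci) below 0.05 together with a log2 fold change of 1 or more in size. The code was tested on simulated data, where most known differences were estimated in the right direction but few of the smaller ones were called. In the first such test, with each locus's own dispersion, none was called between PK and CM; a second, with a dispersion smoothed over loci, called more. A missing call is therefore weak evidence of no difference. DESeq2 1.42.0, the edgeR exact test, other filters, sums over transcripts, a block by replicate number and leaving out each library were tried as alternatives. Adjusted p-values judge a difference against the spread between these libraries, and not against that among trees or among other cultivars. The members and lists were chosen with earlier results of these data known; named loci were the members, their counterparts, called loci of the lists and the 3 most similar loci. Over all tested loci, the differences between replicates 1 and 2 correlated between groups at 0.329 to 0.56 in PK and CM. The main fit did not use this pairing, and the replicate number was a block only in an alternative fit. Between PK and CM the main fit called 1.64% of all loci at NEI and 3.6% at pre-NEI. With the block these shares were 3.34% and 10.7%.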

Additional observations from a re-analysis of the deposited data

Results flagged for a closer look

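Among the members, counterparts and gene lists, 6 loci moved in opposite directions between stages in the paired cultivars, in every library. They were up at NEI in PK or GF and down at NEI in CM or PU. The difference between the stage changes of the paired cultivars was not tested in any of them. The stage change in PK minus that in CM was 2.2 on the log2 scale for XLOC_003346, 2.37 for XLOC_012940 and 3.49 for XLOC_004477. The last has 1 to 11 counts in the CM libraries and passed the filter through PK. This quantity equals the cultivar difference at NEI minus that at pre-NEI. It is thus built from the differences that chose the members, and that choice can favour the pattern. Among the laccases it was 4.6 for XLOC_013625 and 4.88 for XLOC_013626 in PK minus CM, and 3.49 for XLOC_011655 in GF minus PU. The same pattern held in 4.01% of all tested loci in the PK/CM table and in 4.43% in the GF/PU table. These shares are no like-for-like comparison for loci chosen by cultivar differences, which include XLOC_013625 and the gene of XLOC_011655. Neighbours of XLOC_003346 that were not chosen by their level also showed the pattern. They were XLOC_002215, XLOC_003344, XLOC_003345, XLOC_002216, XLOC_003347, XLOC_003348 and XLOC_002217. Of these, XLOC_003347, XLOC_003348 and XLOC_002217 lie inside its span and may share reads with it. XLOC_003346, XLOC_012940 and XLOC_004477 may share reads with one another, so they are not 3 separate observations.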

How the results depend on the processing

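Of the 12 member differences between cultivars (6 members at 2 stages), 10 reached a log2 size of 1, with 8 where the filter was 5 CPM and 7 for sums over isoforms, and none changed sign among those of that size. In these 2 settings XLOC_004477 was not fitted at either stage, so its differences were missing and not smaller. Only the pre-NEI value of XLOC_019444 fell below 1. The values for XLOC_019444 fell to 1.06 at NEI and 0.74 at pre-NEI with sums over isoforms. XLOC_012488 was called lower in PK (count of 1, against 0) by DESeq2, the exact test and the replicate block at both stages and, at pre-NEI, in a fit of only the 4 libraries compared; DESeq2 also called it between stages in CM (1). Of the 4 peroxidase loci in GF, 1 was called between stages by DESeq2 and 2 by the exact test, against 0. Leaving out each library gave 0 calls throughout for these counts. It moved PK over CM at NEI for XLOC_003346 between 2.2 and 2.76, for XLOC_004476 between 3.32 and 4.13, for XLOC_004477 between 4.9 and 6.07, for XLOC_012940 between 2.44 and 2.65 and for XLOC_003342 between -3.82 and -2.34, and GF over PU for XLOC_019444 between 1.71 and 2.83. At pre-NEI it moved XLOC_004477 between 1.43 (without CM pre-NEI replicate 1) and 2.96 (without CM pre-NEI replicate 2) and XLOC_012940 between -0.22 and 0.79 (the same libraries), so that the direction of XLOC_012940 turned. The pre-NEI value of XLOC_003346 ran between 0.065 and 0.51. Without 1 library, XLOC_019443 fell to 1.65 at NEI (GF NEI replicate 1), XLOC_021475 to 1.43 at pre-NEI (GF pre-NEI replicate 2), and XLOC_019445 was -0.94 at NEI (PU NEI replicate 1) and 1.64 at pre-NEI (PU pre-NEI replicate 1). In GF and PU the replicate shifts correlated at 0.0726 to 0.624, which does not establish pairing. The replicate block left the counts of called peroxidases between stages at 0, where it called 2.31% of all loci in GF and 2.54% in PU. The GF/PU table held no peroxidase outside the members and counterparts in the list, so those counts have no value. With 2 libraries a group, and 3 counts as the limit of detection, small differences could not be detected. The causes of these shifts were not tested.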
